A study of Danio rerio with 12 samples.

Results

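The zebrafish genes whose annotated description contains the word interleukin were followed in eyes of lrpap1 mutant fish and of wild-type fish. The word was found, with case ignored, for 80 genes of the 37055 in the deposited expression table, and 79 of them, all protein coding, are described here. By role, 24 encode secreted ligands, 40 encode receptor chains or receptor-like proteins, and 15 encode proteins that act inside the cell. The rule used no measured value, but it was chosen with earlier results of these data known. RNA was sequenced from 6 fish of a stable lrpap1 mutant line, homozygous for a frameshift made with CRISPR/Cas9, and from 6 wild-type fish. All fish were 3 months old, and each sample held both eyeballs of 1 fish, so the spread within a genotype is a spread between fish. The mutants came from 1 line. Each sample is a mixture of ocular tissues, in which more cells of a type and more RNA per cell cannot be told apart.

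Interleukins are secreted proteins through which immune and tissue cells signal to each other. Most bind receptors built from a ligand-specific chain and a chain shared by several receptors, such as the common gamma chain, gp130 or the IL-10 receptor beta chain, and pass their signal through JAK kinases and STAT transcription factors. Receptors of the IL-1 family signal instead through MyD88 and IRAK kinases to NF-κB, and those of the IL-17 family through the adaptor Act1. In the eye, interleukin signals are best known from inflammation of the ocular surface, the uvea and the retina, where leukocytes, microglia and epithelial cells take part. A few genes carry the word for historical reasons only, such as the RNA-binding protein ilf2 and the nfil3 transcription factors.

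The total count was between 7988538 and 9829112 reads per sample. The targeted gene was lower in the mutants, with a log2 fold change of -0.52 (SE, the standard error, 0.11, and 0.0108 as the adjusted p of edgeR's quasi-likelihood fit), at 16.4 to 22.3 CPM in mutant eyes and 22 to 31.3 CPM in wild-type eyes. CPM stands for a gene's reads as a share of its library, with library sizes adjusted by TMM. All 10 listed retina markers had counts, with summed levels of 23380 to 35315 CPM in mutant and 24426 to 36469 CPM in wild-type eyes, most of it from rho. Within the list opn1mw1 (log2 fold change -4.56) and vsx1 (-0.74) fell, without overlap of the genotypes, and the other 8 did not pass the test. Wild-type sample 3 stood apart: its 10 lens markers summed to 77.4 CPM, against 6495 to 8197 CPM in the mutant samples and 7397 to 14731 CPM in the other wild-type samples. All 7 measured markers of the leukocyte list had a log2 fold change above 0, and 5 of them, ptprc, lcp1, coro1a, itgb2 and arpc1b, rose by 1.04 to 1.33 on the log2 scale. The sum of all 7 was 667 to 1409 CPM (median 919) in mutant and 446 to 957 CPM (median 575) in wild-type eyes. Most of it came from cd74a and cd74b (log2 fold changes of 0.44 and 0.76), which did not pass the test. These 2 encode invariant chains of the class II major histocompatibility complex, so the sum mostly follows them. An exact permutation test of the log2 value of the sum, two-sided, gave p = 0.0368. Of the 12 macrophage and microglia markers 7 rose, with a median log2 fold change of 0.96 over the list. The highest values were 1.64 for marco, 1.61 for c1qc, 1.47 for c1qa and 1.27 for csf1ra. The other 5 did not pass the test, namely mpeg1.2 (0.93), p2ry12 (0.86), spi1b (0.41), havcr1 (0.03) and apoeb. The sum of this list was 1002 to 1347 CPM in mutant and 941 to 1330 CPM in wild-type eyes, most of it from apoeb (-0.12, means of 1045 CPM in mutant and 1135 CPM in wild-type eyes). Markers of T and NK cells summed to 60.8 to 80.9 CPM in mutant and 42.2 to 72.0 CPM in wild-type eyes. Most of this sum came from tox2 and runx3, which did not pass the test. Of the 6 tested, cd4-1 and zap70 rose (log2 fold changes of 1.65 and 1.70), and ccl38.6 had -1.25 without passing. Neutrophil markers summed to 9.22 to 88.8 CPM in mutant and 4.76 to 33.5 CPM in wild-type eyes, with mmp9 (0.34) the largest part. None of the 3 tested passed with edgeR. DESeq2 gave adjusted p values of 0.00011 for mpx, 0.0094 for npsn and 0.010 for mmp13a, all higher in mutants, while lyz had -0.07. With all genes kept, edgeR gave adjusted p values of 0.0101 for mpx, 0.0502 for npsn and 0.045 for mmp13a. Mutant sample 2 alone held 152 of the 278 mutant reads of mpx, 214 of 408 of npsn and 83 of 149 of mmp13a. B cell markers summed to 2.93 to 7.40 CPM in mutant and 0.793 to 2.01 CPM in wild-type eyes, and blnk, the only one tested, rose (1.69). Most of this sum came from blnk, at means of 3.31 CPM in mutant and 1.01 CPM in wild-type eyes. The untested markers had at most 13 reads in a sample. Mean CPM was higher in mutants for cd79a, cd79b and cxcr5 and lower for pax5 (0.104 CPM in mutant and 0.135 CPM in wild-type eyes). The same exact permutation test gave p = 0.738 for the macrophage and microglia sum and 0.0108 for T and NK cells. It gave 0.255 for neutrophils and 0.00216, the smallest it can give, for B cells. These p values were not adjusted for the number of lists. No marker on these 5 leukocyte and lineage lists was at 0 in every sample of a genotype. All 5 erythrocyte markers had log2 fold changes below 0 and hbaa1 and hbaa2 fell, and the median of their sum was 528 CPM in mutant and 942 CPM in wild-type eyes. The part of these cells in the results that follow was not tested.

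Most interleukin genes with enough reads were measured at somewhat higher levels in the mutant eyes, and 5 of the 7 that passed the test were receptors, which made up 31 of the 48 tested. The filter on low counts was passed by 48 of the 79 genes, and p values were adjusted over all 18984 genes that passed. A gene was called where its adjusted p was under 0.05 and its log2 fold change was beyond 1 in either direction. By this rule 3 of the 48 genes were called, or 6.25%, where 4.55% of all tested genes were called. The called genes were the receptor chains il20ra, il2rga and LOC101886252, all higher in mutants, where 3.68% of all tested genes were called higher. By the adjusted p alone, 7 genes (14.6%) passed, where 11.2% of all tested genes did. Of these, il20ra, il2rga, LOC101886252, il16, il6st and nfil3-6 rose (12.5%, where 6.92% of all tested genes rose) and il17rd fell (2.08%, where 4.27% fell). These shares rest on few genes and are no result about the interleukin genes as a set. At an unadjusted p under 0.05 there were 19 (39.6%), where 27.2% of all tested genes passed. DESeq2 gave 68 of the genes an adjusted p and called 8 of these (11.8%, where 6.38% of all genes given an adjusted p were called). Among the 68, 15 had an adjusted p under 0.05 (22.1%, where 14.0% of all genes given one did). With all genes kept, edgeR called 5 of 79 (6.33%, where 4.47% of all genes were called), and limma called 4 of 48 (8.33%, where 5.46% were called). Between genotypes the log2 fold change was above 0 in 36 of the 48 genes, with a median of 0.30, whereas 47.4% of all tested genes were above 0, with a median of -0.02. Genes can vary together across the same fish, so they are not separate observations. A gene could also pass the filter through 1 genotype, as LOC101886252 did with 2 to 13 reads in wild-type eyes. This count and the medians are therefore no result about the interleukin genes as a set. Receptors had a median log2 fold change of 0.45 over 31 tested genes, ligands 0.11 over 5, and intracellular proteins 0.16 over 12. The genotypes did not overlap in 2 of the 48 genes (4.17%), il20ra and il17rd, where 5.83% of all tested genes did not overlap. Without wild-type sample 3, 52 of the genes passed the filter, 3 were called (il20ra, il2rga and il10ra, among 858 of 19272 genes overall), 6 (11.5%) had an adjusted p under 0.05 where 9.77% of all genes did, and the median log2 fold change was 0.36.

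**Figure D1:**
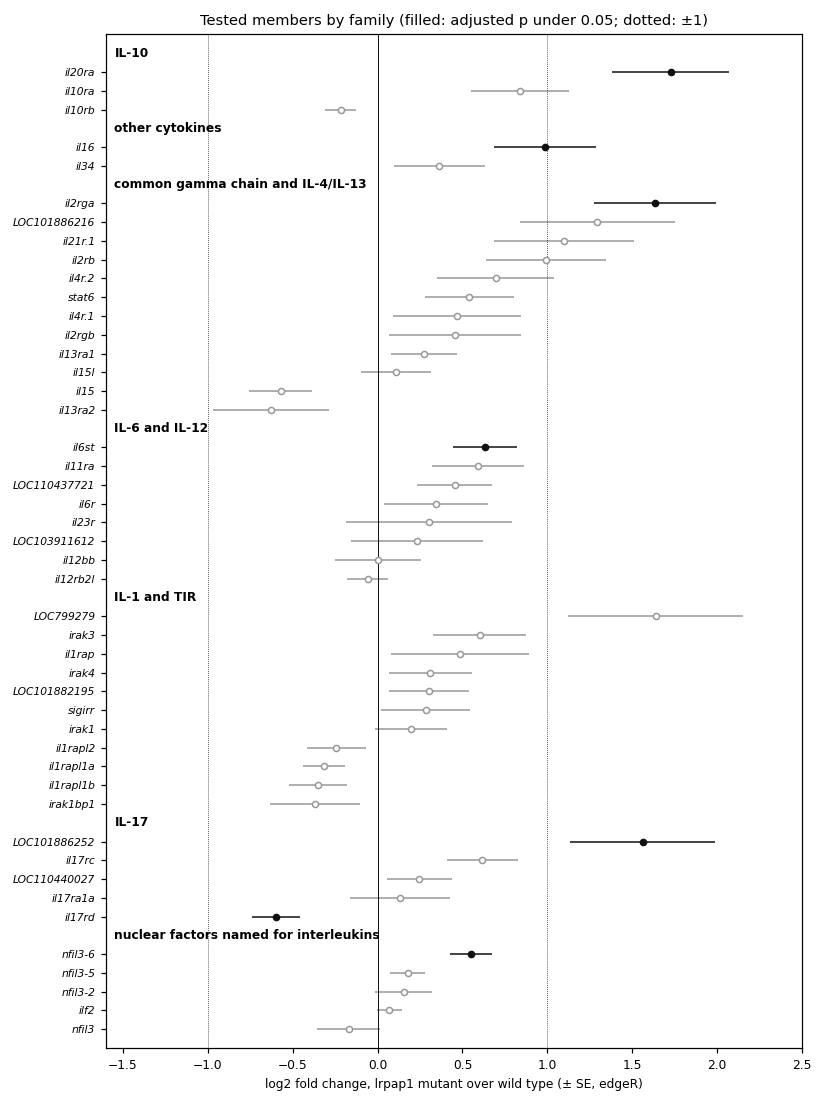
The log2 fold change of 46 of the 48 tested interleukin genes (x axis, mutant over wild type, with its standard error as a bar) is drawn by family, with the gene on the y axis, filled points for an adjusted p under 0.05 from edgeR and dotted lines at a log2 fold change of 1 in either direction. The values run from -0.63 for il13ra2 to 1.73 for il20ra, and 36 lie right of 0.

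The remaining 31 genes were too low to be tested. They were 19 of the ligands, 9 of the receptors and 3 of the intracellular proteins, and their highest count in any sample was 29. Their mean CPM was higher in mutants in 21 genes and lower in 10, often by a few reads. The share among other genes with as few reads was not computed, so these counts are no result about the interleukin genes. Levels of different genes are compared here by TPM, which accounts for gene length. TPM was not scaled by TMM, so genotypes are compared by the log2 fold change from counts, which can differ from the TPM means. The median level over all 12 samples was 0.34 TPM for the 24 ligands, 2.53 TPM for the 40 receptors and 6.38 TPM for the 15 intracellular proteins. At least 1 TPM was reached by 9 of the ligands, 28 of the receptors and 12 of the intracellular proteins. No ligand reached 10 TPM, while 6 receptors did. The eye held mRNA for many interleukin receptors and for few interleukins at levels that could be measured well at this depth.

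**Figure D2:**
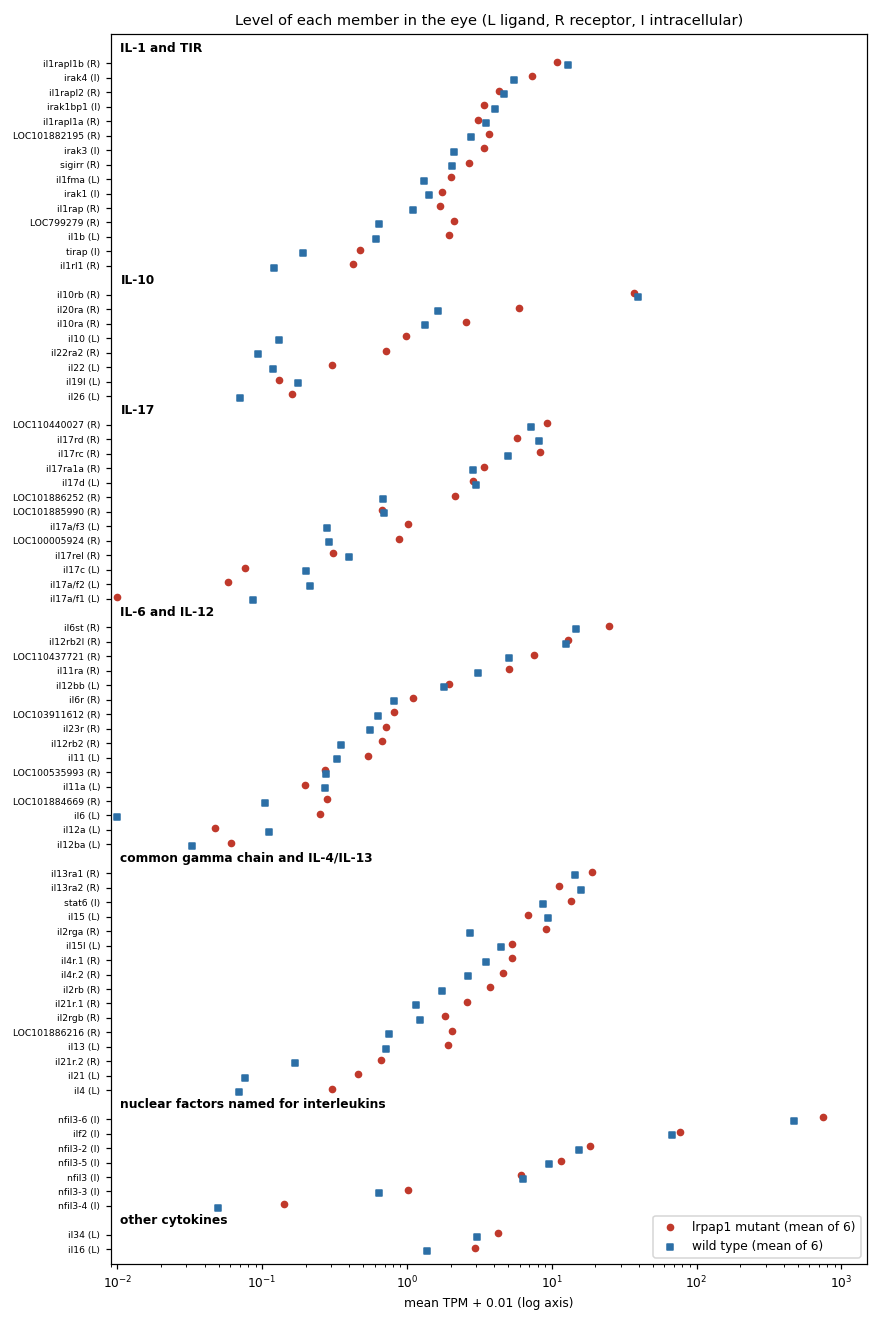
The mean level of 77 of the 79 genes is drawn as TPM plus 0.01 on a log axis, for the 6 mutant samples (red circles) and the 6 wild-type samples (blue squares), by family and with the role in brackets after the gene (L, R or I). Gene nfil3-6 is highest, at 743 TPM in mutants and 468 TPM in wild type, and most ligands lie below 1 TPM.

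Of the 5 tested ligands, il16 alone rose. It encodes a cytokine cut from a PDZ-domain precursor and known as a chemoattractant for CD4+ cells, and lies on chromosome 7 of GRCz11 from 11459164 to 11581408. Expression ran from 4.66 over a median of 8.25 to 13.8 CPM in mutant eyes and from 2.34 over 4.87 to 6.36 CPM in wild-type eyes. Mutant samples 1, 2 and 3 were above every wild-type sample, and mutant samples 4, 5 and 6 lay within the wild-type range. On the log2 scale the fold change was 0.99 (SE 0.30, edgeR adjusted p = 0.0495). The adjusted p was above 0.05 when any of mutant samples 1, 2 or 3 or wild-type samples 1, 2, 3, 4 or 6 was left out, with 0.0795 without wild-type sample 3 and 0.117 at the highest, without mutant sample 2.

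The ligand with the highest level was il15, which supports NK and memory T cells, at 6.86 ± 1.41 TPM in mutant and 9.39 ± 1.68 TPM in wild-type eyes (SD, n = 6 each). It ran from 3.19 over a median of 5.22 to 6.46 CPM in mutant eyes and from 5.47 over 7.30 to 9.78 CPM in wild-type eyes, with overlap at the edges. Fitted over all samples, the log2 fold change of il15 was -0.57 (SE 0.19, edgeR adjusted p = 0.0624), and DESeq2 gave an adjusted p of 0.044 and limma 0.037. Its relative il15l had a log2 fold change of 0.11 (SE 0.21). The csf1 receptor ligand il34, known for its part in microglia, ran from 1.82 over 4.39 to 5.20 CPM in mutant eyes and from 2.23 over 3.14 to 3.57 CPM in wild-type eyes. The resulting log2 fold change of il34 was 0.36 (SE 0.27, edgeR adjusted p = 0.411), with the mutant range enclosing the wild-type range. The beta subunit il12bb, a part of IL-12 and IL-23, had medians of 1.38 CPM in mutant and 1.11 CPM in wild-type eyes. Its log2 fold change was 0.00, with an SE of 0.25 from edgeR, 0.38 from DESeq2 and 0.33 from limma.

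The classical inflammatory ligands were at few reads. Interleukin 1 beta, il1b, the main IL-1 of fish, had 8, 29, 11, 22, 11 and 13 reads in mutant samples 1 to 6 and 0, 6, 9, 6, 8 and 2 reads in wild-type samples 1 to 6. Every mutant sample had at least 8 reads, and of the wild-type samples only 3 and 5 reached that. It did not pass the filter, and with all genes kept edgeR gave an adjusted p of 0.0798, while DESeq2 gave 0.0239. The pleiotropic acute-phase cytokine il6 had 4 reads in mutant sample 2, 1 read in mutant sample 5 and none in any wild-type sample. The anti-inflammatory il10 had 15 reads over 4 mutant samples and 2 reads over 2 wild-type samples. The T helper type 2 cytokine il13 had 48 reads in mutant and 19 reads in wild-type samples, and its relative il4 had 5 reads in mutant samples and 1 read in wild-type samples. The lymphocyte cytokine il21 had 1 to 6 reads in each mutant sample and 3 reads in 1 wild-type sample. The IL-12 chains il12a and il12ba had 2 reads each in mutants and 6 reads and 1 read in wild type. The barrier cytokines il22 and il26 had 5 and 2 reads in mutants and 2 reads and 1 read in wild type. Of the IL-17 ligands, il17a/f3 had 34 reads in mutant and 10 reads in wild-type samples. Of these untested ligands only il1b had an adjusted p under 0.05 from DESeq2, none had one from edgeR with all genes kept, and reads this few leave most differences undetectable.

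The receptor chain il20ra showed the greatest difference of the 48 tested genes on the log2 scale. It encodes the alpha chain of receptors for IL-20-type cytokines, which in mammals act mainly on epithelia, and lies on chromosome 20 from 2589400 to 2609276. Its level ran from 5.94 over a median of 8.64 to 9.33 CPM in mutant eyes and from 0.782 over 2.4 to 4.36 CPM in wild-type eyes. Every mutant sample lay above every wild-type sample. The log2 fold change was 1.73 (SE 0.34, edgeR adjusted p = 0.00639), a 3.31-fold difference. It stayed called when any of the 12 samples was left out, with log2 fold changes of 1.55 to 1.97 and a value of 1.56 without wild-type sample 3. Unlike the 7 leukocyte markers, il20ra was not highest in mutant samples 1, 2 and 3. Among the mutants, sample 5 was highest at 9.33 CPM and sample 2 lowest at 5.94 CPM. Mutant samples 1, 2 and 3 all lay above 4, 5 and 6 in 0 of 6 tested T and NK cell markers. The 1 tested B cell marker also lacked this order. The summed epithelial markers, which include ocular surface and skin keratins, were 6977 to 12775 CPM in mutant and 6401 to 10197 CPM in wild-type eyes, most of it from krt5 (log2 fold change -0.10). Of the 6 epithelial markers krt4, epcam and cdh1 rose, with log2 fold changes of 1.13, 1.34 and 0.74, and krtt1c19e fell, with -2.57. Their part in the difference in il20ra was not tested.

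None of the other tested chains of the IL-10 family passed the test with edgeR, and both had an unadjusted p under 0.05. The shared chain il10rb was the most abundant receptor by TPM, at 36.8 ± 2.66 TPM in mutant and 39.4 ± 4.33 TPM in wild-type eyes (SD, n = 6 each), and its log2 fold change was -0.22 (SE 0.09, edgeR adjusted p = 0.143). The ligand-specific chain il10ra ran from 3.36 over 4.53 to 6.39 CPM in mutant eyes and from 1.06 over 2.84 to 4.24 CPM in wild-type eyes, with overlap. On the log2 scale the fold change of il10ra was 0.84 (SE 0.29, edgeR adjusted p = 0.0752), and the adjusted p was 0.0401 from DESeq2 and 0.028 from limma. The gene il22ra2 encodes in mammals a secreted decoy that binds IL-22. It had 7, 4, 1, 5, 13 and 8 reads in mutant samples 1 to 6 and 0, 1, 0, 2, 2 and 0 in wild-type samples 1 to 6. Only mutant sample 3 fell within the wild-type range. It did not pass the filter, and its adjusted p was 0.0376 from edgeR with all genes kept and 0.0172 from DESeq2.

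**Figure D3:**
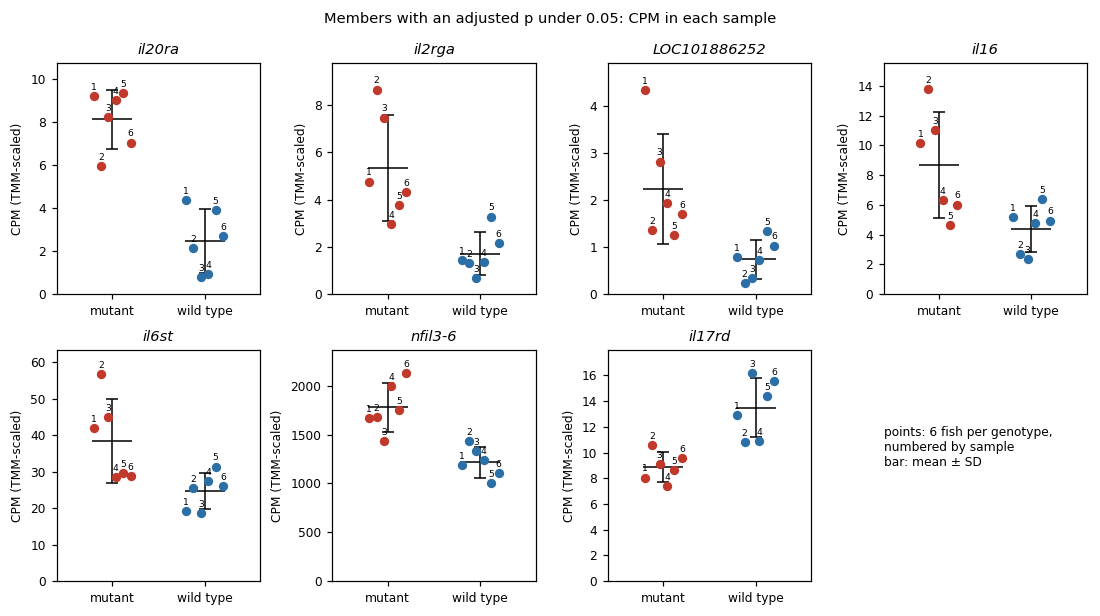
The CPM (TMM-scaled, y axis from 0) of the 7 genes with an adjusted p under 0.05 is drawn for each of the 6 mutant (red) and 6 wild-type samples (blue), numbered, with the mean and SD as black bars. In il20ra and il17rd no point of a genotype lies within the range of the other, and in il2rga, il16 and il6st mutant samples 1, 2 and 3 lie above mutant samples 4, 5 and 6.

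Receptors that use the common gamma chain held the second called gene, il2rga. It encodes 1 of the 2 zebrafish copies of the gamma chain, which is shared by the receptors of IL-2, IL-4, IL-15, IL-21 and others and is found mainly on lymphocytes and other leukocytes. It lies on chromosome 10 from 33544329 to 33557299. CPM ran from 2.97 over a median of 4.54 to 8.66 CPM in mutant eyes and from 0.670 over 1.40 to 3.28 CPM in wild-type eyes. Mutant samples 2 and 3 were highest, and the genotypes overlapped only through mutant sample 4 and wild-type sample 5. Fitted over all samples, the log2 fold change was 1.63 (SE 0.36, edgeR adjusted p = 0.0110), a 3.10-fold difference. It stayed called when any of the 12 samples was left out, with log2 fold changes of 1.46 to 1.95 and a value of 1.49 without wild-type sample 3. The other copy, il2rgb, had medians of 1.59 CPM in mutant and 1.19 CPM in wild-type eyes and a log2 fold change of 0.46 (SE 0.39, edgeR adjusted p = 0.484).

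The chains that pair with the gamma chain were higher on average but did not pass the test. Chain il2rb, which carries IL-2 and IL-15 signals, ran from 4.39 over 8.71 to 13.7 CPM in mutant eyes and from 2.01 over 4.09 to 9.03 CPM in wild-type eyes. Its log2 fold change was 0.99 (SE 0.36, edgeR adjusted p = 0.0859, DESeq2 adjusted p = 0.0425), with overlap. The IL-2 receptor beta-like gene LOC101886216 had a log2 fold change of 1.29 (SE 0.46, edgeR adjusted p = 0.0814), and il21r.1, a receptor of IL-21, one of 1.1 (SE 0.41, edgeR adjusted p = 0.101). The IL-4 receptor copies had log2 fold changes of 0.70 for il4r.2 and 0.47 for il4r.1, with SEs of 0.35 and 0.38. Over the 12 tested genes of this family, log2 fold changes were above 0 in 10, where 47.4% of all tested genes were above 0. Only il2rga passed the test. Genes can vary together across the same fish, so this count is no result about the family. Among the receptors of IL-13, il13ra1, the signalling chain, had a log2 fold change of 0.28 (SE 0.19), while il13ra2, a decoy in mammals, had one of -0.63 (SE 0.34, edgeR adjusted p = 0.254). The level of il13ra2 ran from 3.41 over 5.46 to 14.0 CPM in mutant eyes and from 7.48 over 11.3 to 16.5 CPM in wild-type eyes, so the ranges overlapped widely.

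Of the receptors of the IL-6 and IL-12 family, il6st rose. It encodes gp130, the signalling chain shared by IL-6, IL-11, LIF and related cytokines, and lies on chromosome 10 from 5794082 to 5821649. Levels ran from 28.5 over a median of 35.8 to 56.7 CPM in mutant eyes and from 18.6 over 25.9 to 31.4 CPM in wild-type eyes. Mutant samples 1, 2 and 3 were above every wild-type sample, and the others lay within the wild-type range. The resulting log2 fold change was 0.63 (SE 0.19, edgeR adjusted p = 0.0448), a 1.55-fold difference. The adjusted p was above 0.05 when any of mutant samples 1, 2 or 3 or wild-type samples 1, 2, 3, 4 or 6 was left out, with 0.0757 without wild-type sample 3 and 0.096 at the highest, without mutant sample 2. By TPM il6st was the second most abundant receptor, at 24.9 ± 8.20 TPM in mutant and 14.8 ± 3.84 TPM in wild-type eyes (SD, n = 6 each).

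The ligand-specific chains of this family did not pass the test. Between genotypes the log2 fold change was 0.59 (SE 0.27, edgeR adjusted p = 0.173) for il11ra and 0.35 (SE 0.31) for il6r. The table holds 4 further genes described as gp130-like, which may share reads with each other or with il6st. Of these, LOC110437721 had a log2 fold change of 0.45 (SE 0.22) and LOC103911612 of 0.23 (SE 0.39), and the other 2 were not tested. Receptor il12rb2l was measured at 13.0 ± 1.85 TPM in mutant and 12.6 ± 2.39 TPM in wild-type eyes (SD, n = 6 each), at a log2 fold change of -0.06 (SE 0.12). The IL-23 receptor il23r stood at medians of 1.55 CPM in mutant and 0.980 CPM in wild-type eyes, at a log2 fold change of 0.30 (SE 0.49). In this family 7 of 8 tested genes had a log2 fold change at or above 0, where 47.4% of all tested genes were above 0. Among the 7 was il12bb, whose sign changed with the scaling. Of the 8 genes 1 passed the test, and the count of 7 is likewise no result about the family.

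No gene of the IL-1 family passed the test with edgeR: of its 11 tested genes 3 had an unadjusted p under 0.05, where 27.2% of all tested genes did. By the adjusted p DESeq2 gave 2 of 15, where 14.0% of all its genes passed, and limma 0 of 11, where 13.9% passed. The nearest was LOC799279, an IL-1 receptor type 1-like gene, the type of chain that binds IL-1 and starts its signal. It ran from 1.55 over a median of 4.48 to 10.4 CPM in mutant eyes and from 0.223 over 1.90 to 2.70 CPM in wild-type eyes, and mutant sample 1 was highest. The log2 fold change of LOC799279 was 1.64 (SE 0.52, edgeR adjusted p = 0.0555, DESeq2 adjusted p = 0.0166). The decoy type LOC101882195, an IL-1 receptor type 2, had a log2 fold change of 0.30 (SE 0.23). The accessory chain il1rap had one of 0.49 (SE 0.41), and the inhibitory receptor sigirr one of 0.28 (SE 0.26). The 3 accessory protein-like genes, which in mammals organise synapses in neurons, were all measured lower in mutants. Their log2 fold changes were -0.32 for il1rapl1a, -0.35 for il1rapl1b and -0.24 for il1rapl2, with SEs of 0.12, 0.17 and 0.17. The lowest adjusted p of the 3 from edgeR was 0.112, for il1rapl1a.

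The IL-17 receptors moved in both directions. The called gene LOC101886252, described as IL-17 receptor B-like, lies on chromosome 8 from 53496551 to 53512260. In mammals IL-17 receptor B binds IL-25 and IL-17B. Its level ran from 1.25 over a median of 1.82 to 4.34 CPM in mutant eyes, from 11 to 41 reads, and from 0.235 over 0.760 to 1.33 CPM in wild-type eyes, from 2 to 13 reads. Mutant sample 1 was highest, and only wild-type sample 5 lay above the lowest mutant sample. Fitted over all samples, the log2 fold change was 1.56 (SE 0.43, edgeR adjusted p = 0.0317), a 2.95-fold difference. The adjusted p was above 0.05 when mutant samples 1 or 3 or wild-type samples 1, 2, 3 or 4 were left out in turn, with 0.0581 without wild-type sample 3 and 0.0819 at the highest, without mutant sample 1.

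The gene il17rd fell. It encodes Sef, known from zebrafish as an antagonist of FGF signalling, and lies on chromosome 11 from 42641469 to 42719359. CPM ran from 7.36 over a median of 8.87 to 10.6 CPM in mutant eyes and from 10.8 over 13.7 to 16.2 CPM in wild-type eyes. Every mutant sample lay below every wild-type sample, by a small margin between mutant sample 2 and wild-type sample 2. The resulting log2 fold change was -0.60 (SE 0.14, edgeR adjusted p = 0.0154), with values of -0.65 to -0.52 and an adjusted p of at most 0.0431 when any sample was left out. Without wild-type sample 3 the log2 fold change was -0.52 (edgeR adjusted p = 0.0344). Of the other chains, il17rc, which pairs with IL-17 receptor A, ran from 11.6 over 16.5 to 26 CPM in mutant eyes and from 8 over 11.2 to 15.5 CPM in wild-type eyes. Between genotypes the log2 fold change of il17rc was 0.62 (SE 0.21, edgeR adjusted p = 0.0714, DESeq2 adjusted p = 0.0403). For il17ra1a, a copy of IL-17 receptor A, it was 0.13 (SE 0.29), and for the IL-17 receptor E-like gene LOC110440027 it was 0.25 (SE 0.19). An untested IL-17 receptor A-like gene, LOC100005924, had 16, 10, 14, 8, 11 and 5 reads in mutant samples 1 to 6 and 5, 4, 6, 2, 2 and 3 in wild-type samples 1 to 6, and its adjusted p was 0.0495 from edgeR with all genes kept and 0.0258 from DESeq2.

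Of the proteins inside the cell, nfil3-6 rose. The nfil3 genes encode bZIP transcription factors linked to the circadian clock and, in mammals, to innate lymphoid cells. This copy lies on chromosome 3 from 14097540 to 14103531, 5019 bases from its neighbour nfil3-2, and was the most abundant of the 79 genes, at 743 ± 101 TPM in mutant and 468 ± 54.3 TPM in wild-type eyes (SD, n = 6 each). Levels ran from 1432 over a median of 1718 to 2133 CPM in mutant eyes and from 999.7 over 1211 to 1435 CPM in wild-type eyes. The genotypes overlapped only narrowly, at mutant sample 3 and wild-type sample 2, and mutant sample 6 was highest. On the log2 scale the fold change was 0.55 (SE 0.12, edgeR adjusted p = 0.0129), and when any sample was left out it was 0.51 to 0.62 with an adjusted p of at most 0.0265. Its neighbour nfil3-2 had a log2 fold change of 0.15 (SE 0.17), nfil3-5 of 0.18 (SE 0.11) and nfil3 of -0.17 (SE 0.18).

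The RNA-binding factor ilf2 was abundant and close between genotypes, at 77.2 ± 3.66 TPM in mutant and 67.9 ± 7 TPM in wild-type eyes (SD, n = 6 each). On the count scale its log2 fold change was 0.07 (SE 0.07). The IRAK kinases, which relay IL-1 and Toll-like receptor signals, had log2 fold changes of 0.20 for irak1 (SE 0.21), 0.31 for irak4 (SE 0.24) and 0.60 for irak3, the inhibitory member (SE 0.27, edgeR adjusted p = 0.172). The transcription factor stat6, which acts downstream of IL-4 and IL-13, ran from 10.8 over 19.2 to 28.7 CPM in mutant eyes and from 7.82 over 12.6 to 22.3 CPM in wild-type eyes. Its log2 fold change was 0.54 (SE 0.26, edgeR adjusted p = 0.202), with overlap.

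The mutant samples were not alike, in these genes or across whole libraries. Chi-square per degree of freedom rises as the counts of 2 libraries differ more. It was 8.053 to 10.77 among mutant samples 1, 2 and 3 and 7.024 to 9.699 among mutant samples 4, 5 and 6. Between these groups it was 11.04 to 21.08. The main fit used genotype only and took no account of this grouping, whose cause was not tested. In 18 of the 48 tested genes (37.5%) mutant samples 1, 2 and 3 all lay above mutant samples 4, 5 and 6, an order noticed in the data, whereas 15.2% of all tested genes had it. These 18 genes included il2rga, il16, il6st, il10ra, il2rb, il17rc, LOC799279, irak3 and stat6. The same order was found in 7 of 7 measured leukocyte markers and 8 of 12 macrophage and microglia markers, in 2 of 3 tested neutrophil, 4 of 5 tested skeletal muscle and 3 of 6 epithelial markers, and in 0 of 6 tested T and NK cell markers. It was not found in il20ra, LOC101886252, nfil3-6 or il17rd. Whether leukocytes account for the higher values in mutant samples 1, 2 and 3 was not tested.

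**Figure D4:**
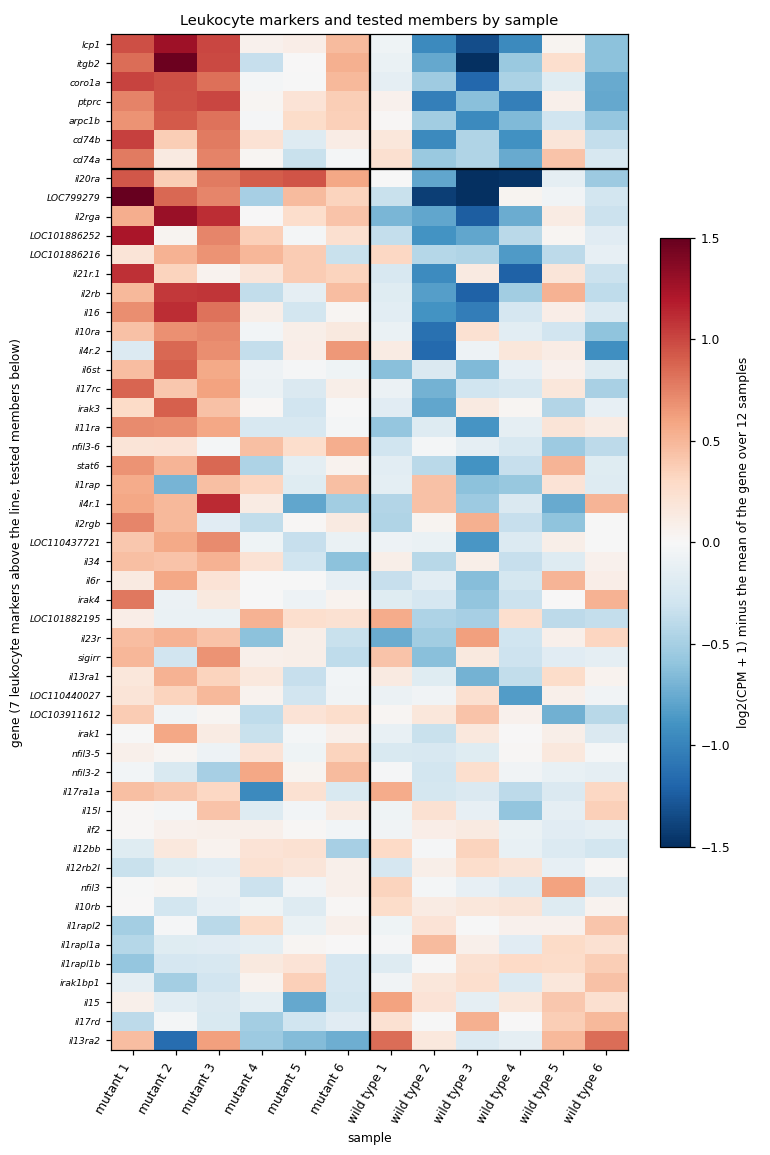
Each cell is the log2(CPM + 1) of a gene (y axis) in a sample (x axis, 6 mutant samples left of 6 wild-type samples) minus that gene's mean over the 12 samples, red above and blue below, with 7 leukocyte markers over the line and 46 of the 48 tested interleukin genes under it, ordered by log2 fold change. The columns of mutant samples 1, 2 and 3 are reddest in the markers and in many of the upper rows. This does not hold for LOC101886252, LOC101886216 or il21r.1 near the top, and il20ra is red in all 6 mutant samples.

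The pathway genes around the receptors were examined through lists of signalling and related genes that lack the word interleukin. Of the 78 listed genes that were found, 68 were tested, and 16 were called, all higher in mutants, where 3.68% of all tested genes were called higher. Several of these genes are also among those named in the study's own analysis of these samples, so their direction is not independent evidence. The lists were chosen with earlier results of these data known, so the shares given for them are no result about these pathways. With no minimum fold change 22 rose and 2 fell, where 6.92% of all tested genes rose and 4.27% fell, and the median log2 fold change was 0.35. Without wild-type sample 3, 10 of them were called, and between 8 and 19 were called when each sample was left out in turn.

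Among the JAK kinases and STAT factors 6 of 12 rose and 1 fell, against the same 6.92% and 4.27% of all tested genes. The interferon-linked stat1b had 18.9 to 39.9 CPM in mutant and 1.65 to 6.87 CPM in wild-type eyes, and its log2 fold change was 2.96 (SE 0.30, edgeR adjusted p = 7.1e-05). The factor stat4, which in mammals carries IL-12 and IL-23 signals, had 8.31 to 12.5 CPM in mutant and 1.45 to 5.54 CPM in wild-type eyes, at a log2 fold change of 1.35 (SE 0.26). The kinase jak3, the partner of the common gamma chain, had 4.32 to 12.5 CPM in mutant and 1.90 to 4.41 CPM in wild-type eyes, at a log2 fold change of 1.15 (SE 0.30, edgeR adjusted p = 0.0246). Genotypes overlapped in jak3 and not in stat1b or stat4. The gp130-linked factor stat3 had a log2 fold change of 0.35 (edgeR adjusted p = 0.189), and stat5a and stat5b, which act downstream of the gamma chain receptors, of 0.26 and 0.15. The kinase jak2a fell, with a log2 fold change of -0.34. Of the SOCS genes, feedback inhibitors of these kinases, socs1a and socs1b rose, with log2 fold changes of 0.87 and 1.28, and the other 7 tested did not pass, socs3a and socs3b among them.

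Along the route from the IL-1 receptor to NF-κB 4 of 20 genes rose and 1 fell, again beside 6.92% and 4.27% of all tested genes. Those that rose were bcl3, a nuclear IκB protein (log2 fold change 2.43, SE 0.36), the IκB kinase ikbkb (1.04), the NF-κB subunit rel (1.03) and the inhibitor nfkbie (0.70), and the kinase-binding tab1 fell (-0.33). The adaptor myd88 had a log2 fold change of 0.24 and traf6 of 0.60, and neither passed the test. Of the 4 genes tested for the processing of IL-1, the inflammasome adaptor pycard and the caspases caspb and caspbl were called, with log2 fold changes of 1.14, 1.21 and 2.36. Of the 5 tested genes of the IL-17 pathway 2 were called and the other 3 did not pass. The 2 were traf3ip2a, which encodes a copy of Act1, and rorcb, a copy of the RORγ factor, with log2 fold changes of 1.21 and 1.11. Beside both lists, 3.68% of all tested genes were called higher. Of the receptors and ligands related to interleukins 5 of 18 rose, namely csf3r, csf1ra and csf2rb, receptors of colony-stimulating factors found mainly on myeloid cells, with log2 fold changes of 1.72, 1.27 and 1.24, and lepr and crlf1a, with 0.93 and 0.70. The gene csf1ra is also on the macrophage marker list.

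**Figure D5:**
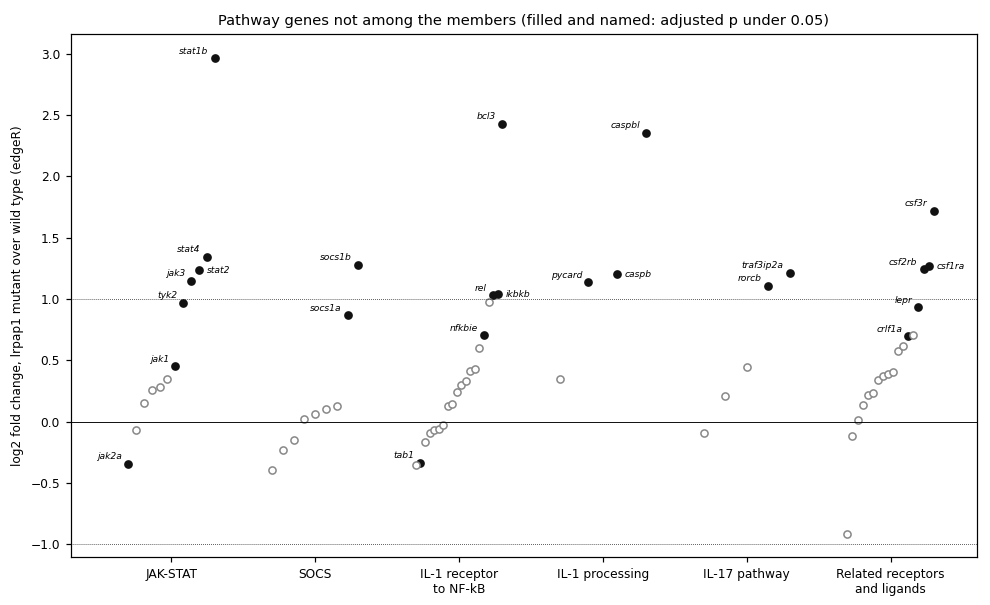
The log2 fold change of each of the 68 tested pathway genes (y axis, mutant over wild type, dotted lines at 1 and -1) is drawn by list (x axis), with filled and named points for an adjusted p under 0.05 from edgeR. The highest value is 2.96 for stat1b, and jak2a and tab1 are the named points below 0.

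Some of the 79 genes lie beside each other, so that their reads or their regulation need not be separate. They were spread over 23 chromosomes, with 10 on chromosome 3, and 10 pairs lay less than 60000 bases apart. The pairs include the tandem copies il21r.1 and il21r.2, il4r.1 and il4r.2, and nfil3-2 and nfil3-6 on chromosome 3, il1rl1 and LOC799279 on chromosome 9, il22 and il26 on chromosome 4, and il10 and il19l on chromosome 11. The genes il17a/f1 and il17a/f2 overlap on opposite strands, and whether reads were counted by strand is not given in the sources used here. Reads shared between such copies could be split in a way that the counts do not show.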

How the data were processed

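Eyeball RNA of 6 lrpap1 mutant and 6 wild-type zebrafish was enriched for polyadenylated mRNA, sequenced and aligned by the authors to GRCz11 with HISAT2 2.1.0. The authors deposited raw counts of reads per gene for each sample. The program that counted reads and its use of strand are not given in the sources used here. The authors also deposited TPM values, which equalled count over gene length, rescaled per sample, with a largest relative deviation of 8.6e-08. Samples were grouped by their labels. Totals were 7988538 to 9829112 reads, so genes with few reads carry a large counting error.

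Counts were tested in R 4.3.3 with edgeR 4.0.16 (TMM, filterByExpr, glmQLFit and glmQLFTest, genotype only), with Benjamini-Hochberg adjustment over 18984 genes. Standard errors were the absolute log2 fold change over the square root of the F statistic. They are approximate, and least reliable where the log2 fold change is near 0. Genes were called at an adjusted p under 0.05 with a log2 fold change beyond 1 either way. DESeq2 1.42.0 and limma 3.58.1 (voom with quality weights), other scalings, filters and thresholds, a replicate block and each sample left out were alternatives. CPM was computed from the counts with TMM scaling. Marker sums were compared by exact permutation tests. The tests were checked on simulated data, with changes set only in genes with more reads than il20ra, il2rga and LOC101886252 and only beyond the log2 threshold. Detection at fewer reads or of smaller changes was not covered by this check.

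Genes were taken by the word interleukin in their description, 1 gene with it was left out, and 2 others enter the counts but are not reported singly here. Values are given for genes with an adjusted p under 0.05, for those highest by TPM and for a list of cytokine and receptor genes. Genes named beyond these were chosen after their values were seen. The genes, the pathway lists and the marker lists were chosen with earlier results of these data known. No 2 libraries were alike within sampling noise.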

Additional observations from a re-analysis of the deposited data

Results flagged for a closer look

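Dixon's ratio was computed for 118 groups of 6 samples, and in 6 of them 1 sample had a ratio over 0.625 and so lay apart, where chance gives about 1 in 20, or 5.9. In il21r.1, mutant sample 1 was at 5.51 CPM and the other mutant samples at 2.17 to 2.96 CPM. In irak4, mutant sample 1 was at 9.75 CPM and the other mutant samples at 4.87 to 5.85 CPM. In the gp130-like gene LOC110437721, wild-type sample 3 was at 5.02 CPM and the other wild-type samples at 8.63 to 10.8 CPM. The summed neutrophil markers were 88.8 CPM in mutant sample 2 and 9.22 to 38.7 CPM in the other mutant samples. The summed T and NK cell markers were 72.0 CPM in wild-type sample 5 and 42.2 to 48.8 CPM in the other wild-type samples. The total count of wild-type sample 1 was 7988538, and those of the other wild-type samples were 9142860 to 9829112.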

How the results depend on the processing

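The number of interleukin genes called was 3 and became 8 of 68 with DESeq2 (where 6.38% of all genes were called), 5 of 79 with no filter, 1 of 35 (il16) with at least 10 counts in every sample, a filter that il20ra, il2rga and LOC101886252 do not pass, 7 with no minimum fold change and 5 at an adjusted p under 0.1. It was 4 with limma, and 2 to 6 when each sample was left out, with 6 without wild-type sample 5, 5 without mutant sample 4 and 2 without mutant samples 1 or 3 or wild-type samples 2 or 4. Chains il20ra and il2rga were called by DESeq2, by limma and in each fit with a sample left out. With limma il10ra and il21r.1 were called too, and LOC101886252 was not (adjusted p = 0.0534). DESeq2 added LOC799279, il2rb, il1b, il22ra2 and LOC100005924 to the 3 genes. Over all genes, the 864 called became 1525 with DESeq2, 464 with at least 10 counts in every sample, 2124 with no minimum fold change and 686 to 1160 with each sample left out. The 16 pathway genes became 8 to 19, with 8 without mutant sample 1, 10 without mutant sample 3, 9 without wild-type sample 2 and 10 without wild-type sample 3. Replicate numbers are shared by the genotypes but did not pair the samples, with correlations of deviations of -0.27 to 0.09 between samples of the same number. With the replicate block 1 of the 48 interleukin genes (il20ra) and 9 pathway genes were called, where 640 of all 18984 genes (3.37%) were called. The direction held in every alternative for 45 of the 48 tested genes. The exceptions lie near 0. The log2 fold change of il12bb (0.00) was -0.0043 with upper quartile scaling, -0.013 with the replicate block and -0.077 to 0.17 with each sample left out. That of il12rb2l (-0.06) was -0.095 to 0.015 and that of il15l (0.11) -0.0073 to 0.24 with each sample left out. The causes of these changes were not tested, except that filters change which genes enter. At these depths, 31 of the 79 genes had too few reads for a test.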
